A study of Mus musculus with 7 samples.

Results

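Periostin and other genes of matrix repair and fibrosis were followed in quadriceps femoris muscle of mice that overexpress mutant Twinkle (C10ORF2), the helicase that unwinds mitochondrial DNA, and of wild-type mice. The named genes were Postn, Tnc, Sparc, Thbs1, Thbs4, Spp1, Fn1, Lox, Ctgf (current symbol Ccn2) and Timp1, 10 in all, and a gene was measured through every probe set annotated to its symbol alone. This gave 16 probe sets for 9 of the 10 genes, out of 34945 named probe sets and 18193 genes. Spp1 had no probe set named in the annotation used here, and a probe set annotated to both Thbs1 and Pald1 was left out. The genes were chosen with their values on these arrays already known, in particular those of mutant replicate 1, which is shown apart throughout. For that reason the differences of the 9 genes between arrays and genotypes are descriptions. A fit over all genes is given below with the 9 among them, and its outcome for the 9 is no independent test.

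The study hybridised total RNA to single-colour Affymetrix arrays, 1 array per sample, with 3 mutant and 4 wild-type samples labelled as biological replicates. The mice were old, at 24, 24 and 21 months for mutant replicates 1 to 3 and 26, 24, 21 and 23 months for wild-type replicates 1 to 4. The promoter that drives the transgene, the Twinkle mutation, the strain and the sex are not given in the sources used here. The free-text descriptions name cerebellum, while the titles, source and tissue entries name muscle. All 11 muscle fibre markers measured here lay in the highest level class recovered from the file, between 8 and 16 on the log2 scale, and none of 10 cerebellum markers did.

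Matricellular proteins are secreted into the extracellular matrix, where they bind structural proteins, growth factors and cell surface receptors and change how cells adhere, migrate and respond. They are scarce in resting adult tissue and are made during development, wound repair and fibrosis, largely by fibroblasts under the influence of TGF-beta. In skeletal muscle, fibroblasts of the connective tissue between fibres, tendon cells and invading macrophages are known sources.

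The deposited log2 values set each array against the median of the 7 for that probe set, so 0 is the median array and 1 is a doubling over it. The arrays can be compared with each other for a gene, but the genes cannot be ranked by level beyond a coarse level class. For a gene with several probe sets the value is the mean of those in its highest recovered level class, and the others are given separately.

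Genes with 3 different patterns over the arrays are shown by the 300 bases around an annotated start, 250 before it and 50 after it, from RefSeq on GRCm38.p6. These windows were matched for 6 of the 10 genes. Postn was the gene of mutant replicate 1, Thbs4 was among those highest in wild-type replicate 3, and Timp1 was highest in mutant replicate 3. Capitals mark TATAAA and CATTCC, a motif bound by TEAD factors, on either strand. RefSeq lists a second Postn start further upstream, and the arrays do not tell the starts apart.
Postn, chr3:54360857-54361156, plus strand: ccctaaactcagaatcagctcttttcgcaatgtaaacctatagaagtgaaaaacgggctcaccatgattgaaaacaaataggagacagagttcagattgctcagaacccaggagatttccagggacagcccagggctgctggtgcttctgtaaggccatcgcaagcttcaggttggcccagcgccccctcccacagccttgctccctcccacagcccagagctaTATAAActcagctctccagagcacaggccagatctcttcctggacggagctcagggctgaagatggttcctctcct
Thbs4, chr13:92794769-92795068, minus strand: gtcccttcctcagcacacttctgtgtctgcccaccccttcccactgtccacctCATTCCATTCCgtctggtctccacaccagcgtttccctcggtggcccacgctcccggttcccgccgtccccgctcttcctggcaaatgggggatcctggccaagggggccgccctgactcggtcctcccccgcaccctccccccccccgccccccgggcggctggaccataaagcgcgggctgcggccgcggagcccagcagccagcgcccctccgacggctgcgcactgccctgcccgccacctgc
Timp1, chrX:20869916-20870215, plus strand: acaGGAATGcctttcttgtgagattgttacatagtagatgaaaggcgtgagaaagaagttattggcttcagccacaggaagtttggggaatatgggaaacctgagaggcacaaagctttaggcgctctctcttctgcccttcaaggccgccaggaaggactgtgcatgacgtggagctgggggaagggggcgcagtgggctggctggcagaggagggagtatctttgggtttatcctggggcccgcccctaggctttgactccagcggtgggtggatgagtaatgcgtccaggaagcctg
The Postn window holds TATAAA once, 26 bases before the start, and TATAAA occurs in 13.6% of 32544 distinct windows of this length. CATTCC or its reverse complement occurs 2 times in the Thbs4 window, in matches that share bases, and once in the Timp1 window, 247 bases before the start, against 14.6% of all windows with at least 1 match. The AP-1 motif TGANTCA was in none of the windows of these 6 genes and in 7.79% of all windows. CAGAC, a core motif of SMAD factors, was in 49.5% of all windows. Among these genes it was in windows of Postn, Tnc, Spp1, Sparc and Thbs4 and not in that of Timp1. For Postn it was only in the upstream window, not printed here, which holds no TATAAA. The matches describe these letters and say nothing about the use of the sites.

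Postn, which encodes periostin, a collagen-binding protein that promotes collagen cross-linking, had the widest range of the 9 genes. It measured 3.82 in mutant replicate 1, -0.25 in mutant replicate 2 and 0.16 in mutant replicate 3. The wild-type values were 0.00, -0.67, 1.27 and -0.12 in replicates 1 to 4. A single mutant array thus stood far above all others, 14.2-fold over the median array and 5.89-fold over the next array, wild-type replicate 3, while the other 2 mutant arrays lay within the wild-type range. Postn had a single probe set, as had Ccn2, Thbs4 and Timp1, so no second probe set stands beside the values of these genes. The mutant mean was 1.24 ± 2.24 (SD, n = 3) against 0.12 ± 0.82 (SD, n = 4) in wild type, so the log2 difference was 1.13 ± 0.98 (SE). Without mutant replicate 1 the difference was -0.16 ± 0.51, and with wild-type replicate 3 left out as well it was 0.22 ± 0.25. The sign of the genotype difference thus depended on which of these arrays were kept.

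Fn1, the adhesive glycoprotein fibronectin, was high in mutant replicate 1 as well, and equally high in one wild-type array. Its values were 1.74, -0.03 and 0.39 in the mutant arrays. They were -0.25, 0.00, 1.75 and -0.03 in the wild-type arrays. Mutant replicate 1 and wild-type replicate 3 were level with each other, and the other 5 arrays lay between -0.25 and 0.39. The log2 difference was 0.33 ± 0.58 (SE) with all arrays, -0.19 ± 0.57 without mutant replicate 1 and 0.79 ± 0.43 without wild-type replicate 3. The second Fn1 probe set, in the class between 4 and 8, did not show these peaks, with 0.26 in mutant replicate 1 and -0.29 in wild-type replicate 3.

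Ccn2, the connective tissue growth factor induced by TGF-beta and by YAP with TEAD factors, peaked in wild-type replicate 3 and was lowest in mutant replicate 1. It measured -0.31, 0.29 and 0.40 in the mutant arrays. The wild-type arrays measured -0.06, 0.00, 1.91 and -0.19. Wild-type replicate 3 was 2.85-fold above the next array, and the genotype difference of -0.29 ± 0.52 (SE) became 0.21 ± 0.20 without it. With mutant replicate 1 left out too, both remaining mutant arrays lay above the 3 remaining wild-type arrays, with a difference of 0.43 ± 0.10. It was 1 of the 9 genes with that order, which 5.38% of all genes had on these 5 arrays.

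Tnc, the anti-adhesive glycoprotein tenascin C, was highest in wild-type replicate 3 and lay near the median array in mutant replicate 1. Tnc measured -0.02, -0.34 and 0.00 in mutant replicates 1 to 3, against 0.14, 0.00, 1.02 and -0.16 in wild-type replicates 1 to 4. Its difference of -0.37 ± 0.28 (SE) was the lowest of the 9, and it was -0.11 ± 0.14 without wild-type replicate 3. The second Tnc probe set, in the class between 2 and 4, ranged only from -0.02 to 0.15, with the same array at the top.

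Thbs4, a thrombospondin of tendon and muscle matrix, measured 0.51, -0.14 and 0.48 in mutant muscle, against -0.50, -0.25, 1.32 and 0.00 in wild type. Here 2 mutant arrays stood above all wild-type arrays except replicate 3. The difference was 0.14 ± 0.43 (SE), and 0.53 ± 0.22 without wild-type replicate 3. Thbs1, which can activate latent TGF-beta, measured 0.00, -0.36 and 0.17 in mutant and -0.26, 0.00, 0.61 and -0.46 in wild-type muscle, a difference of -0.03 ± 0.26. The groups overlapped. Its other probe set, in the lowest level class, was highest in mutant replicate 1 at 0.63 and lay at 0.21 in wild-type replicate 3, so the probe sets of Thbs1 disagreed on the highest array.

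Sparc, a collagen-binding protein of matrix assembly, showed the same peak with a wide spread in both groups. Its mutant values were 0.64, -0.63 and 0.38, and its wild-type values -0.28, 0.00, 1.26 and -0.65. Each group held both high and low arrays, and the difference was 0.04 ± 0.49 (SE). The probe sets averaged here gave 0.85 and 1.67 in wild-type replicate 3, whereas the third, in a lower level class, gave -0.24 there and 0.41 in mutant replicate 1. Lox, the copper enzyme lysyl oxidase that cross-links collagen and elastin, had mutant values of -0.01, -0.03 and 0.05 and wild-type values of -0.12, 0.06, 0.64 and -0.58. The 3 mutant arrays were nearly identical and lay inside the wild-type range, with means of 0.00 ± 0.04 (SD, n = 3) and 0.00 ± 0.50 (SD, n = 4). The third Lox probe set, in the class between 2 and 4, was highest in mutant replicate 1 at 0.17 and gave 0.10 in wild-type replicate 3.

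Timp1, an inhibitor of matrix metalloproteinases, was raised neither in mutant replicate 1 nor in wild-type replicate 3. The mutant values were -0.48, 0.00 and 1.27, against 0.49, 0.00, 0.00 and -0.12 in wild type. The highest array was mutant replicate 3, where Timp1 ranked 4 of 18193 genes, and the lowest was mutant replicate 1, where Postn ranked 3. Wild-type replicate 3 lay exactly at the median together with 2 other arrays. Such exact ties were common in the file, with more than 1 array at the median in 56.4% of probe sets. The difference was 0.17 ± 0.39 (SE), 0.54 ± 0.36 without mutant replicate 1 and -0.33 ± 0.22 without mutant replicate 3.

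**Figure D1:**
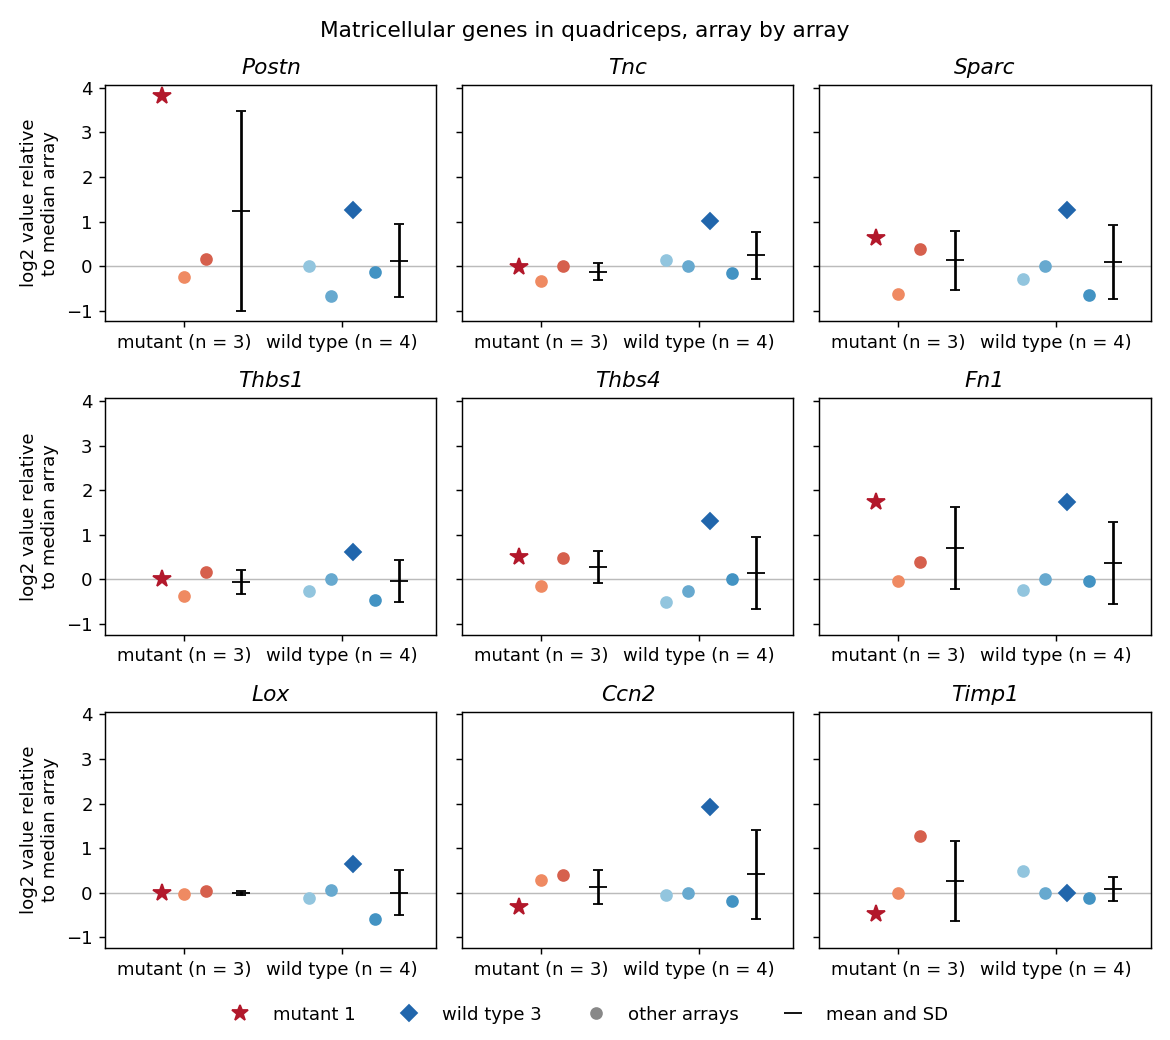
Log2 value relative to the median array (y axis) for each of the 9 measured genes, with 1 point per array, the 3 mutant arrays on the left and the 4 wild-type arrays on the right of each panel, and the group mean with its SD beside them. The star is mutant replicate 1, at 3.82 for Postn, and the diamond is wild-type replicate 3, at 1.91 for Ccn2.

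By genotype, the 9 genes did not separate the groups. None had its 3 mutant values all higher than its 4 wild-type values, which was so for 0.846% of all genes, and none had them all lower, which was so for 1.18%. The limma fit called 0 of the 9 and 0 of 18193 genes at an adjusted p under 0.05, which is 0% of genes both upward and downward, and no adjusted p over all genes was below 1.00. Unadjusted, 134 genes were higher (0.737%) and 119 lower (0.654%) at p under 0.05, none of them among the 9. The mutant mean was higher for 5 of the 9 and for 46.4% of all genes, and the median difference was 0.04 over the 9 and -0.01 over all genes. Postn was the only one with a difference of at least 1, which 0.110% of all genes reached.

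Leaving out single arrays changed the balance of directions. Without mutant replicate 1 the mutant mean was higher for 3 of the 9 genes, Thbs4, Lox and Timp1, and for 45.6% of all genes. Without wild-type replicate 3 it was higher for 8 of the 9, all but Tnc, and for 48.8% of all genes. With both left out it was again higher for all but Tnc, against 49.4% of all genes, at differences from 0.15 for Thbs1 to 0.51 for Timp1. In that comparison 2 mutant arrays stand against 3 wild-type arrays, and the choice was made after the values were seen.

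**Figure D2:**
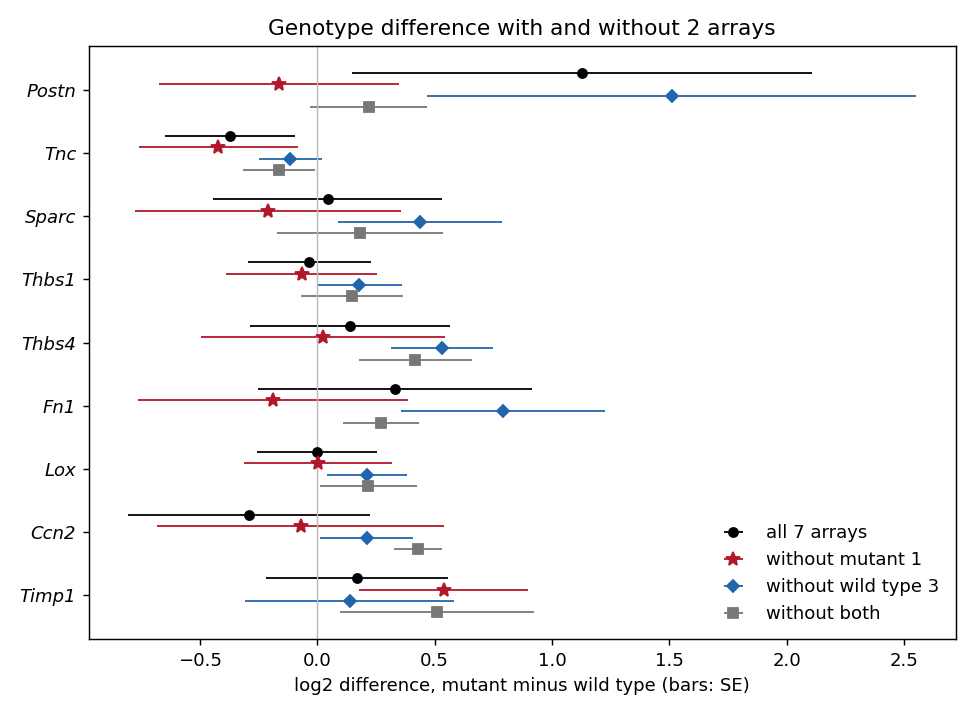
Log2 difference, mutant minus wild type (x axis), with its SE as bars, for each gene with all 7 arrays, without mutant replicate 1, without wild-type replicate 3 and without both. Postn moves from 1.13 with all arrays to -0.16 without mutant replicate 1, and Ccn2 from -0.29 to 0.21 without wild-type replicate 3.

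Array by array, wild-type replicate 3 was the highest of the 7 for 7 of the 9 genes, namely Tnc, Sparc, Thbs1, Thbs4, Fn1, Lox and Ccn2, where it was the highest for 24.6% of all genes. It lay at least 1 above the median array for 6 of the 9, against 1.51% of all genes. The mean over the 9 genes was 1.09 there, 0.65 in mutant replicate 1 and 0.37 in mutant replicate 3, and between -0.26 and -0.09 in the other 4 arrays. Without Postn the mean in mutant replicate 1 fell to 0.26, below the 0.39 of mutant replicate 3. Mutant replicate 1 lay at least 1 above the median array for Postn and Fn1 alone, against 0.236% of all genes. Once wild-type replicate 3 was set aside, mutant replicate 1 was the highest of the remaining 6 arrays for Postn, Sparc, Thbs4 and Fn1 (23.6% of all genes) and mutant replicate 3 for Thbs1, Ccn2 and Timp1 (11.4% of all genes). Over all 7 arrays mutant replicate 1 was highest for Postn alone, against 16.1% of all genes. Mutant replicate 3 was highest for Timp1 alone, against 7.83% of all genes, and at least 1 above the median array for Timp1 alone, against 0.0385%.

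Markers of connective tissue cells moved with the peak in wild-type replicate 3. The 11 fibroblast markers averaged 0.86 in that array, against -0.27 to 0.34 in the other 6, and it was the highest array for 10 of the 11. The mutant means of this list ran from -0.19 to 0.34 and the wild-type means from -0.27 to 0.86. The 9 tendon markers averaged 1.05 there against -0.40 to 0.18 elsewhere, with Tnmd, the tendon membrane protein tenomodulin, at 1.62, Fmod, the collagen-binding fibromodulin, at 1.41 and Angptl7 at 0.85. Of the 8 fibroblast markers in the highest level class, the first 3 in list order were Pdgfra, a growth factor receptor, at 0.59, Dcn, the proteoglycan decorin, at 0.19 and Lum, the proteoglycan lumican, at 0.78.

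Other cell types and one sign of RNA quality differed in the same array. The 16 macrophage and leukocyte markers averaged 0.74 against -0.50 to 0.24 elsewhere, and the 6 adipocyte markers 0.91 against -0.91 to 0.50. The mean of the 11 muscle fibre markers was lowest there, at -0.71 against -0.13 to 0.18 elsewhere. This list was uneven, and its first 3 genes in list order were Acta1 at -0.15, Ckm at -0.02 and Ttn at -1.26. Ckm was lower in wild-type replicate 1, at -0.16. The 7 satellite cell markers (-0.10) and the 11 endothelial and mural markers (-0.12) were not raised. For the Gapdh control, 5 prime minus 3 prime gave -0.55 there and at least -0.04 elsewhere, while for beta-actin it gave 0.12, inside the range of the others. The part of these in the 7 gene peaks was not tested, and in whole muscle a change in the number of cells of a type cannot be told apart from a change in their RNA content.

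**Figure D3:**
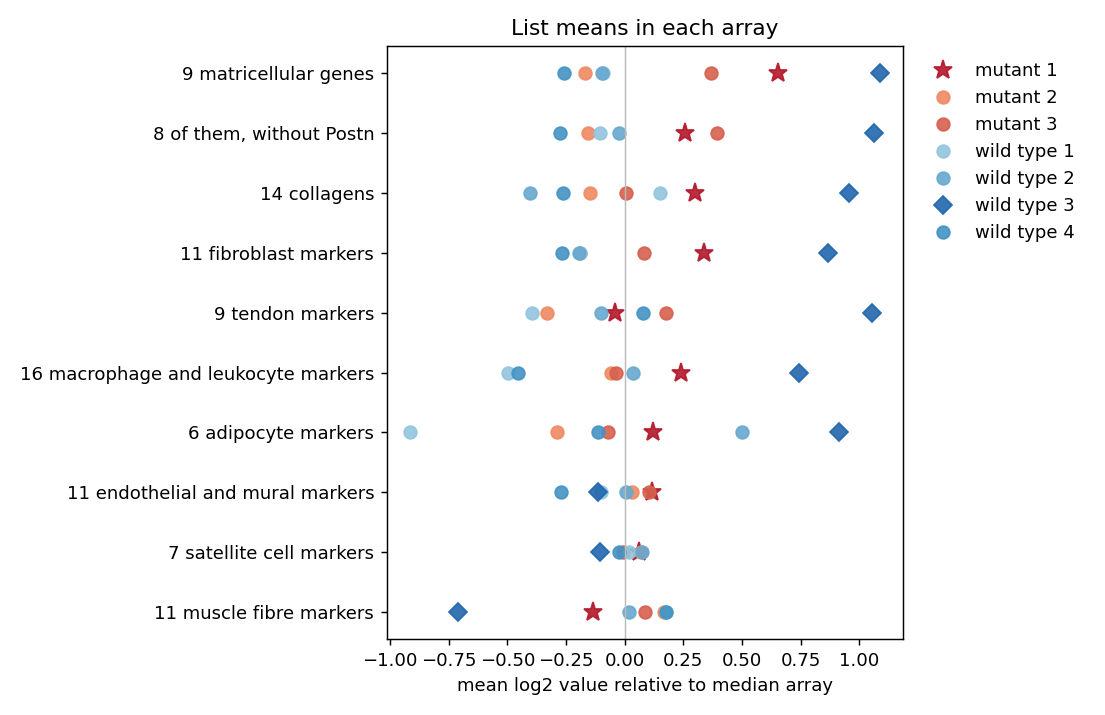
Mean log2 value relative to the median array (x axis) of the 9 matricellular genes, the same without Postn, 14 collagens and 7 marker lists, with 1 point per array. Wild-type replicate 3, the diamond, is highest for the matricellular (1.09), fibroblast (0.86) and tendon (1.05) means and lowest for muscle fibre markers (-0.71), and mutant replicate 1, the star, drops from 0.65 to 0.26 when Postn is left out.

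The Postn peak in mutant replicate 1 was not accompanied by connective tissue markers to the same degree. In that array the fibroblast mean was 0.34, the tendon mean -0.04 and the macrophage and leukocyte mean 0.24. The 3 controls for 18S ribosomal RNA had a mean of 3.19 there, against -0.77 to 0.56 in the other 6 arrays. The 5 genes outside the 9 that lay closest to Postn, by the root mean square difference over the 7 arrays, were Ngp at 0.60, Tnfaip6 at 0.79, Crym at 0.84, Lcn2 at 0.86 and Car4 at 0.88. That measure favours genes high in mutant replicate 1, where Postn peaked, so their high values there follow largely from the choice. Ngp, a granule protein of neutrophils, measured 3.29 in mutant replicate 1, and Lcn2, the neutrophil lipocalin, 2.12. Tnfaip6, a secreted hyaluronan-binding protein of inflammation, measured 2.30 there. None of these 5 shared the smaller Postn peak of 1.27 in wild-type replicate 3, where they lay between -0.20 and 0.34.

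Only S100a9 and S100a8, calcium-binding proteins of neutrophils and monocytes, stood above Postn in mutant replicate 1, at 5.35 and 4.93, and they were noticed after the values were seen. Both were also raised in wild-type replicate 2, at 2.52 and 1.71, where Postn was at its lowest. A list of neutrophil genes put together after that averaged 1.57 over 14 genes in mutant replicate 1 and -0.25 to 0.43 in the other 6 arrays. Mutant replicate 1 was the highest array for 8 of the 14, while the receptors Csf3r and Cxcr2 lay at 0.02 and -0.16. The list was chosen on these arrays, and its part in the Postn value was not tested.

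The genes closest to Timp1 were Cpeb1 at 0.32, Tspan8 at 0.33, Bdnf at 0.35, Cyp26b1 at 0.37 and Zfp326 at 0.37. All 5 were highest in mutant replicate 3, from 0.36 to 0.92, and none reached the Timp1 value of 1.27. They were picked by closeness over the same arrays, so the shared highest array follows largely from the choice. Cyp26b1 encodes an enzyme that degrades retinoic acid, and Bdnf a neurotrophin. The mean fibroblast marker value in mutant replicate 3 was 0.08 and that of the leukocyte markers -0.04, both close to the median array.

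**Figure D4:**
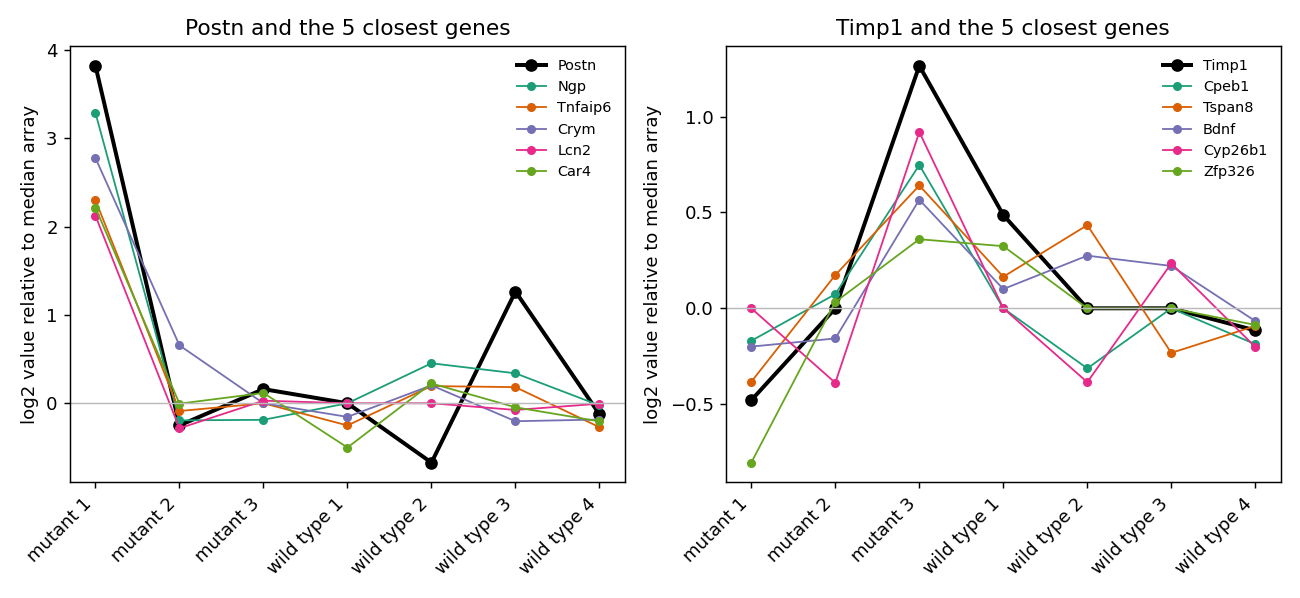
Log2 value relative to the median array (y axis) in each of the 7 arrays (x axis) for Postn with its 5 closest genes (left) and Timp1 with its 5 closest genes (right). The neighbours were picked by closeness over these same arrays, so the peak they share with Postn in mutant replicate 1 follows largely from the choice. The second Postn peak of 1.27 in wild-type replicate 3 has no counterpart among them.

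Genes that act with these proteins were measured as lists, none of which was called. Of 23 genes for TGF-beta ligands, receptors, latency proteins and SMADs, 0 passed the limma test in either direction, 9 differed upward and 14 downward, and the median difference was -0.08. Tgif1, a repressor of TGF-beta target genes, differed by 0.52 ± 0.20 (SE), Acvr2b, an activin and myostatin receptor, by 0.27 ± 0.15 and Smad2 by -0.16 ± 0.11. In wild-type replicate 3 the median of this list was 0.08, far below that of the 9 genes.

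Of the 18 integrins and other receptors of matricellular proteins, 0 passed and the median difference was 0.07. Sdc4, a heparan sulfate proteoglycan that binds fibronectin and marks satellite cells, had mutant values of 0.26, 0.36 and 0.35, each above the wild-type values of 0.00, -0.20, -0.38 and -0.20. Its difference of 0.52 ± 0.11 (SE) did not pass over all genes (limma adjusted p = 1.00). Itgb6 differed by 0.15 ± 0.09 and Cd44, the hyaluronan and osteopontin receptor, by 0.24 ± 0.18.

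Of 34 other matricellular and matrix glycoproteins, 0 passed, 15 differed upward and 19 downward, with a median difference of -0.03. Their median was 0.65 in wild-type replicate 3, which was the highest array for 24 of the 34. Among the CCN relatives of Ccn2, Ccn6 differed by -0.36 ± 0.16 (SE), Ccn5 by -0.17 ± 0.12 and Ccn3 by 0.45 ± 0.33. Ccn3 was near 0.67 in both mutant replicate 1 and wild-type replicate 3.

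The enzymes around Lox and the relatives of Timp1 gave 0 calls as well. The 17 collagen cross-linking and processing enzymes had a median difference of 0.04 and a median of 0.55 in wild-type replicate 3, with Tgm2 at a difference of 0.12 ± 0.12 (SE), P4ha1 at 0.15 ± 0.17 and Loxl4 at -0.13 ± 0.23. The 29 TIMPs and matrix proteases had a median difference of -0.06 and a median of 0.10 in wild-type replicate 3. Mmp8 differed by -0.20 ± 0.12, Mmp12 by -0.20 ± 0.12 and Plaur, the urokinase receptor, by -0.19 ± 0.13.

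The 14 collagens had a median difference of -0.06, with 5 upward, 9 downward and 0 called. They shared the peak, with a median of 1.03 in wild-type replicate 3 and 13 of the 14 highest there, and a median of 0.18 in mutant replicate 1. Col5a3 differed by -0.14 ± 0.15 (SE), Col5a1 by -0.21 ± 0.27 and Col4a1 by -0.17 ± 0.24. The median difference of the collagens was 0.20 without wild-type replicate 3 and -0.19 without mutant replicate 1. The fibroblast marker list holds 3 of these 14 collagens. It also shares Dcn, Lum and Fbn1 with the list of other matricellular and matrix glycoproteins, and the tendon list shares Fmod and Comp with it. The peaks of these lists in wild-type replicate 3 are therefore partly those of the same genes.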

How the data were processed

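Total RNA of quadriceps muscle was hybridised to single-colour Affymetrix arrays, per the labels' protocols, and GCOS 4.0 is named in the submitters' processing notes. The summary, scaling and centring steps are not given in the sources used here. The deposited values are log2 values whose median over the 7 arrays is 0 in all 45101 probe sets. The base is inferred from the step size of the stored single-precision values, which also gave each probe set a level class (between 2 and 4, 4 and 8, or 8 and 16). Arrays have no read depth, so their number limits the precision.

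Probe sets with 1 symbol were named through the platform annotation, updated by Entrez identifier (34741 of 34945 matched). Those with several symbols (932) or none were left out. Gene values, the mean of probe sets in the highest level class, were fitted with limma 3.58.1 in R 4.3.3 (lmFit, eBayes, two-sided, no covariate) over 18193 genes with Benjamini-Hochberg adjustment and a threshold of 0.05. SE is limma's, and SD is over arrays. P-values set the group difference against the spread between these samples, which limma moderates over all genes. The fit was tested on simulated data.

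The genes and lists were chosen with earlier results of these data known. Named are all measured members, the 3 genes of smallest p per related list and the 5 genes closest to Postn and to Timp1. From the fibroblast, tendon, muscle fibre and endothelial lists the first 3 genes are named, ordered by level class and then list order. For the tendon list these include Tnmd of a lower class. Replicate numbers 1 to 3 are shared by the groups, but same-numbered arrays did not deviate together (correlations of -0.47, -0.29 and 0.13), so the fit has no block. Alternatives covered probe set averaging, single probe sets, dim genes, quantile normalization, robust fitting, age, the replicate block, the annotation and each array left out. The replicate block used replicates 1 to 3 only, and so left out wild-type replicate 4.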

Additional observations from a re-analysis of the deposited data

Results flagged for a closer look

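In the wild-type group of 4 arrays, 10 of 66 values or list summaries had 1 array set apart from the other 3. The rule was a gap above Dixon's critical share of the group's range. The usual error rate of that share does not apply here. The values hold exact ties at the median array, as for Mmp8 with 3 wild-type arrays at 0. The matricellular genes were chosen with their values known, and Fn1 counts both as gene and as probe set. Of the 10, 8 were wild-type replicate 3. They are not independent, since they share that array. Among the matricellular genes these were Ccn2 at 1.91 and Fn1 at 1.75, the latter through its brighter probe set at the same value of 1.75, and the mean over the 9 genes at 1.09. The fibroblast marker mean at 0.86 and the median of the collagen cross-linking and processing enzymes at 0.55 were set apart in the same array, as were Acvr2b at -0.50 and Lcn2 at -0.076. The other 2 were Mmp8 at 0.30 in wild-type replicate 4 and Crym at 0.20 in wild-type replicate 2. The check was run only on the wild-type group, so it does not cover the Postn value of mutant replicate 1.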

How the results depend on the processing

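The count of genes past the threshold was 0 under the 15 alternatives named above and the 1 added after seeing the data, with a smallest adjusted p of 0.345 without wild-type replicate 1, and 0 genes of any related list passed in any of them. The median difference over the 9 genes, 0.04, ran from -0.18 to 0.30 when 1 array was left out. It was 0.29 with quantile normalization, -0.05 with age as a covariate and -0.18 with the replicate block. That block drops wild-type replicate 4 and gave each of the 9 genes the same difference as leaving out that array alone. All these medians lay within 1 SD of 0.04, but that SD is of the 9-gene mean over the arrays, peaks included. The median changed sign with age, with the block, and without mutant replicate 1 or 3 or wild-type replicate 1 or 4. No gene of the 9 had separated groups under the other alternatives, and 1, Ccn2, did without mutant replicate 1 and wild-type replicate 3 together. Of 151 recomputed differences of single genes, 27 changed sign. None moved by more than the SD between arrays, but leaving out 1 array could not do so. That SD includes the array left out, so even the Postn shift from 1.13 to -0.16 stayed within it. Robust fitting leaves the differences unchanged by design. Dropping dim genes and the annotation as given also left all 9 genes unchanged, as did probe set averaging for genes with a single probe set. The 151 include these, so 27 of 151 understates how often the sign changed where it could. Postn and Fn1 changed sign only with mutant replicate 1 alone left out, and Timp1 only without mutant replicate 3. Thbs4 did so only without wild-type replicate 1 (-0.07), and Tnc under none. The cause of these shifts, beyond the array left out, was not tested. Values relative to the median array give no level beyond the coarse level class, so dim probe sets cannot be told from silent genes.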

Other observations

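The 11 endothelial and mural markers, which were measured as a check on cell types, all had a positive difference, with a median of 0.22, against 46.4% of all genes with a positive difference. Their list means were 0.03 to 0.11 in the mutant arrays and -0.27 to 0.01 in the wild-type arrays, so the list means did not overlap. The gap between the closest arrays was narrow, and the means of every other marker list overlapped. This list is described because of its values. Single genes could overlap, as Pecam1 and Acta2 did, while Rgs5 did not. Genes of a list can vary together, so the share over all genes does not measure chance here. None of the 11 passed the limma test over all genes (smallest adjusted p = 1.00), and 1 had an unadjusted p under 0.05. Unlike the fibroblast and tendon lists, this one was not raised in wild-type replicate 3, where its mean was -0.12.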
